A study of Homo sapiens with 20 samples.

Results

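The genes described here are 6 markers of enterochromaffin-like cells, namely *TPH1*, *FEV*, *LMX1A*, *SLC18A1*, *DDC* and *CXCL14*. They were taken as the rows whose Ensembl identifier maps to these symbols, and make up 6 of the 60624 identifiers listed for the islet-like organoids and 6 of the 60623 listed for the pancreatic progenitors. RNA-seq had been made of wild-type (WT) cells and cells lacking *ALKBH5* (A5-KO), an enzyme that removes the methyl group of m6A from mRNA, to ask how this loss affects pancreatic differentiation. Islet-like organoids (hILOs) had 2 WT and 2 A5-KO libraries. Pancreatic progenitors (PPs), the earlier stage, had 2 libraries of each genotype at 0, 1, 2 and 3 h of actinomycin D (Act D), a blocker of transcription, given at 1 μg per ml.

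All libraries came from the MEL1 human embryonic stem cell line, which the study's methods give as INS GFP/W, a line that carries a GFP reporter in 1 copy of the insulin gene *INS* in both genotypes. Each genotype was represented by a single line, and A5-KO was made with CRISPR-Cpf1, so the genotype and other differences between those lines cannot be told apart. The labels number the replicates without saying whether they were separate differentiations or which libraries shared a batch of cells, and p-values therefore measure only the spread between these libraries. *ALKBH5* itself stood at 78.8 and 81.9 TPM (a transcript's share of its library, scaled by length) in WT hILOs and at 4.16 and 3.42 TPM in A5-KO hILOs. In PPs at 0 h it stood at 149 and 172 CPM (a gene's share of the reads of its library, not scaled by length) in WT and at 19.1 and 18.8 CPM in A5-KO.

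All 6 genes lie on the minus strand of GRCh38. *TPH1* (ENSG00000129167) spans chr11:18017555-18046269, *FEV* (ENSG00000163497) chr2:218981087-218985184 and *LMX1A* (ENSG00000162761) chr1:165201867-165356715. *SLC18A1* (ENSG00000036565) spans chr8:20144855-20183206, *DDC* (ENSG00000132437) chr7:50458436-50565405 and *CXCL14* (ENSG00000145824) chr5:135570679-135579279.

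Enterochromaffin cells are endocrine cells of the gut lining that make most of the serotonin of the body. Serotonin is made from tryptophan in a pair of steps, first by a tryptophan hydroxylase and then by aromatic amino acid decarboxylase, and is then loaded into vesicles by a monoamine transporter. Cells of this kind also arise as a side product when stem cells are directed toward islets. Among the 6 genes, *TPH1* encodes the tryptophan hydroxylase of peripheral tissues and *DDC* the decarboxylase. *SLC18A1* encodes the vesicular monoamine transporter VMAT1. *FEV* (an ETS factor) and *LMX1A* (a LIM homeodomain factor) are transcription factors of serotonin-producing cells, and *CXCL14* encodes a secreted chemokine.

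RefSeq start-site windows of GRCh38.p14 were matched for 5 of the 6, *SLC18A1* not being used. The windows from 250 bases before to 50 bases after the start were searched on both strands for 5 words, which were an ETS site (CCGGAAGT), a homeodomain core (TAATTA), the TATAAA word of many core promoters, an E-box of the first form (CAGCTG) and an E-box of the other form (CAGATG). None of these words contains another. TAATTA was found in *TPH1* and *FEV*, 172 and 161 bases before the start, and CAGCTG in *TPH1*, 54 bases before it. None of these letters was found in the windows of *LMX1A*, *DDC* or *CXCL14*. Of 35116 windows of this length, 4.838% held the homeodomain core, 17.946% and 14.697% the first and the other E-box, 11.53% the TATAAA word and 4.138% the ETS site. The 250 bases before the start of *TPH1* (chr11:18046270-18046519, minus strand) and *FEV* (chr2:218985185-218985434, minus strand) are shown because both held the same homeodomain core while only the mRNA of *TPH1* was called lower in A5-KO hILOs. They are written from RefSeq 5′ to 3′, with the motif matches in capitals.
TPH1: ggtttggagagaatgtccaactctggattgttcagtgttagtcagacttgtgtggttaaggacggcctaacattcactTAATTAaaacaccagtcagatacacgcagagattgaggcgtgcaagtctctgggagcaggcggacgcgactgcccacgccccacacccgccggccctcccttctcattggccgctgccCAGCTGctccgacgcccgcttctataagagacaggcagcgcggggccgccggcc
FEV: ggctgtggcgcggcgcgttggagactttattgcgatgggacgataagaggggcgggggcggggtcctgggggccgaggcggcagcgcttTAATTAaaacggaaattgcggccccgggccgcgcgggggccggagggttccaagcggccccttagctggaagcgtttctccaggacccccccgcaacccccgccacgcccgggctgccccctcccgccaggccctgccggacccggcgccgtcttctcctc
The *FEV* stretch was 72.0% G and C with 29 CpG pairs and that of *TPH1* 58.8% with 17, against medians of 58.0% and 11 over all windows. The *LMX1A* stretches before its 2 start sites had 75.2% with 27 and 64.4% with 18, that of *CXCL14* 64.4% with 25, and those of *DDC* 42.4% with 2 and 58.0% with 3. The stretches thus ranged from below these medians, for the first of *DDC*, to well above them. A matching word is a description of the letters and not a bound site.

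In hILOs, 3 of the 6 genes fell in A5-KO and 0 rose. The vesicle transporter *SLC18A1* and the hydroxylase *TPH1* fell to about the same share of WT, and *CXCL14* fell most. *FEV*, *DDC* and *LMX1A* did not pass the call, which asked for an adjusted p below 0.05 from limma and a change of over 1.5-fold. By the same call 4.09% of the 17300 genes tested were lower in A5-KO and 2.7% were higher. The median log2 fold change of the 6 genes was -0.48, against -0.06 over all genes tested. At an unadjusted p below 0.05 by limma, *TPH1*, *SLC18A1*, *CXCL14* and *FEV* were lower and 0 of the 6 higher. At that limit 3238 of the 17300 genes tested were lower and 2106 higher.

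**Figure D1:**
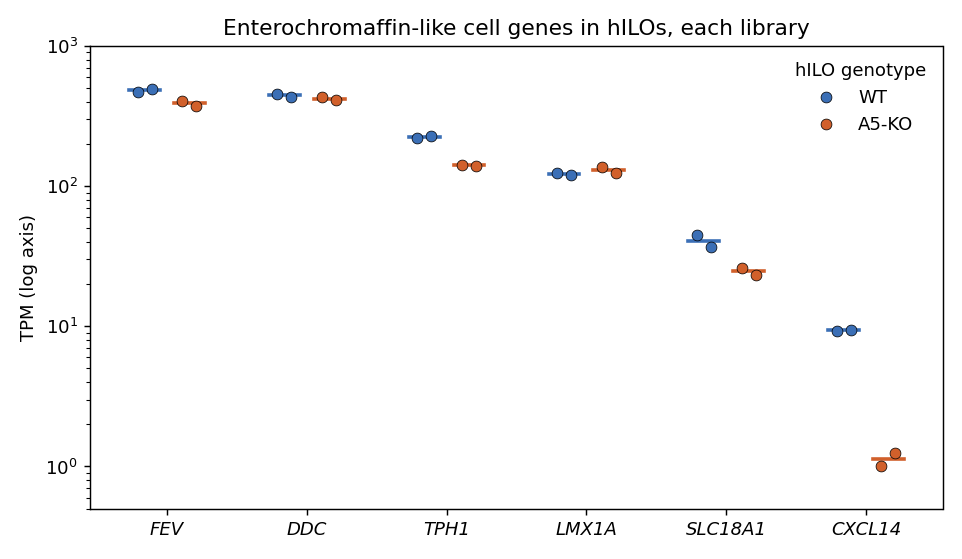
TPM (vertical log axis) of the 6 genes in each hILO library, WT in blue and A5-KO in orange, 2 libraries for each genotype. Points are libraries and bars are means. *CXCL14* stood between 9.32 and 9.36 TPM in WT and between 1.01 and 1.24 TPM in A5-KO, while the *LMX1A* libraries overlapped.

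For the enzymes of serotonin synthesis, *TPH1* stood at 220 and 227 TPM in the WT libraries against 143 and 138 TPM in those of A5-KO. Both A5-KO libraries lay below both WT libraries, and the A5-KO mean was 62.7% of the WT mean. The log2 fold change of TPM + 1 was -0.67 (SE 0.04, 95% interval -0.78 to -0.56, adjusted p = 0.0056 by limma). *DDC* stood at 458 and 434 TPM in the WT libraries against 429 and 409 TPM in those of A5-KO. The A5-KO libraries again lay below those of WT, but only by a little, with a mean at 93.9% of WT. Its log2 fold change was -0.09 (SE 0.05, 95% interval -0.21 to 0.03, adjusted p = 0.26 by limma), and it was 0.0015 with quantile normalization. Non-overlap of this kind is common here, since 37.1% of the genes tested had both A5-KO libraries below both WT libraries and 24.3% had both above.

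A non-coding gene, ENSG00000255448, runs on the same strand as *TPH1* and shares 285 of its 5664 exon bases. It stood at 145 and 160 TPM in the WT hILO libraries against 106 and 96.6 TPM in those of A5-KO, so reads in the shared stretch could be assigned to either gene. It was listed at 0 in all 16 PP libraries. The other overlaps of the 6 genes were with genes on the opposite strand listed at 2.13 TPM or less.

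The transporter *SLC18A1* stood at 44.8 and 36.7 TPM in the WT libraries against 26.0 and 23.2 TPM in those of A5-KO. The libraries did not overlap, although the WT libraries differed more from each other than those of *TPH1* did. The A5-KO mean was 60.4% of the WT mean, and the log2 fold change was -0.70 (SE 0.13, 95% interval -1.04 to -0.36, adjusted p = 0.040 by limma). This call rested on all 4 libraries, since the adjusted p lay between 0.080 and 0.143 when any library was left out. The related transporter *SLC18A2*, which encodes VMAT2, stood at 24.6 and 28.2 TPM in the WT libraries against 26.0 and 27.8 TPM in those of A5-KO. Its libraries overlapped, and its log2 fold change was 0.03 (95% interval -0.24 to 0.29, adjusted p = 0.88 by limma). In WT hILOs *SLC18A1* thus had the higher TPM of the transporters, while in A5-KO the libraries of both genes lay between 23.2 and 27.8 TPM.

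Of the transcription factors, *FEV* stood at 468 and 494 TPM in the WT libraries against 407 and 375 TPM in those of A5-KO. Both A5-KO libraries were lower, with a mean at 81.3% of WT. The log2 fold change was -0.30 (SE 0.06, 95% interval -0.45 to -0.15, adjusted p = 0.044 by limma), which passed the adjusted p and not the fold. *LMX1A* stood at 124 and 120 TPM in the WT libraries against 138 and 124 TPM in those of A5-KO, and the genotypes overlapped. Its log2 fold change was 0.10 (SE 0.07, 95% interval -0.08 to 0.28, adjusted p = 0.38 by limma).

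The chemokine *CXCL14* stood at 9.32 and 9.36 TPM in the WT libraries against 1.01 and 1.24 TPM in those of A5-KO. Its A5-KO mean was 12.0% of the WT mean, the lowest share among the 6 genes. The log2 fold change of TPM + 1 was -2.28 (SE 0.15, 95% interval -2.70 to -1.87, adjusted p = 0.0063 by limma). The added 1 makes this smaller than the change in TPM itself. *CXCL14* was not called without either WT library (adjusted p = 0.059 and 0.060 by limma), nor was *TPH1* without WT replicate 2 (adjusted p = 0.052 by limma). The number of the 6 genes called lower was therefore 1 without WT replicate 1, 0 without WT replicate 2, and 2 without either A5-KO library. Over all genes, leaving out a library lowered the count of genes called lower from 707 to between 96 and 203.

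**Figure D2:**
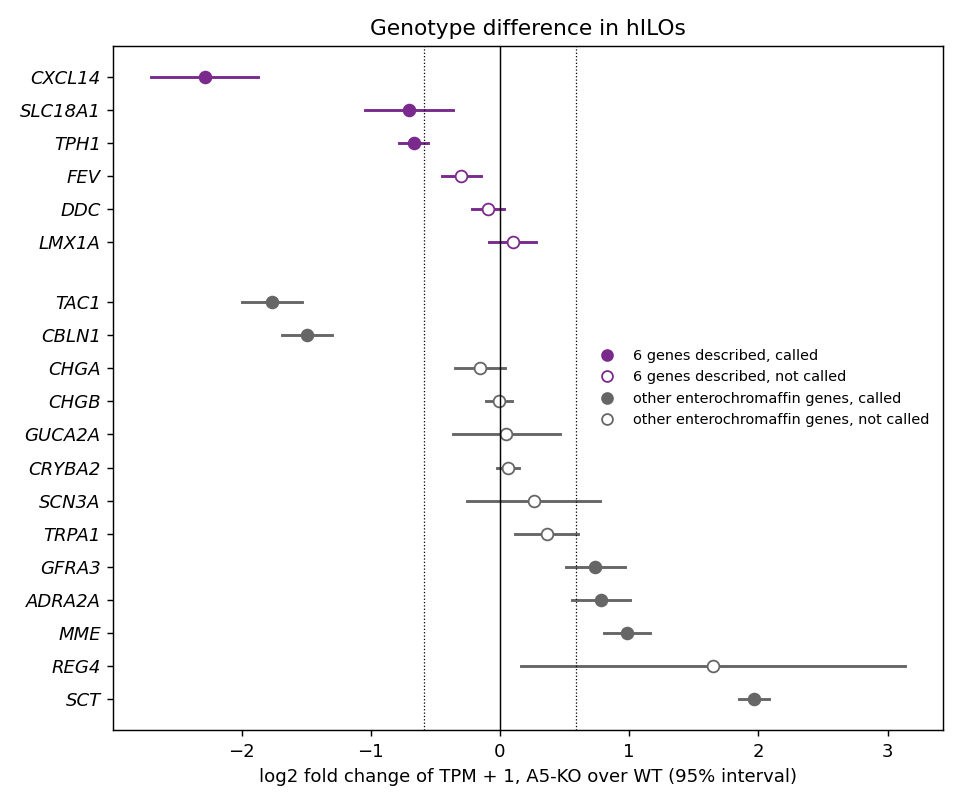
Log2 fold change of TPM + 1 in hILOs, A5-KO over WT (horizontal axis), for the 6 genes (purple) and 13 other enterochromaffin genes (grey), with lines for 95% intervals. Filled points were called, dotted lines mark a 1.5-fold change, and *CXCL14* at -2.28 lies farthest to the left while *SCT* at 1.96 lies farthest to the right.

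TPM is per length, so the levels of the 6 genes can be ordered within hILOs. In WT the order from high to low was *FEV*, *DDC*, *TPH1*, *LMX1A*, *SLC18A1* and *CXCL14*, and the libraries of neighbours in this order did not overlap. In A5-KO the order of the first pair turned, with *DDC* at 409 to 429 TPM and *FEV* at 375 to 407 TPM. *TPH1* and *LMX1A* were close in A5-KO, at 138 to 143 and 124 to 138 TPM, whereas *TPH1* stood well above *LMX1A* in WT. These changes of order were not tested. Counted from the highest gene of each library, *FEV* ranked between 264 and 337, *DDC* between 285 and 304, and *CXCL14* between 9806 and 17050.

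hILOs are mixtures, and in bulk RNA fewer cells of a type and less RNA per cell cannot be told apart. Ratios within a library, chosen after the values were seen, set the 6 genes against broader endocrine mRNAs. Per 100 TPM of *CHGA*, a granin of endocrine cells in general, *TPH1* stood at 1.19 and 1.09 TPM in the WT libraries against 0.783 and 0.813 TPM in those of A5-KO. Per 100 TPM of *FEV* it stood at 47.1 and 46.0 TPM in the WT libraries against 35.0 and 36.9 TPM in those of A5-KO. *TPH1* was thus lower in A5-KO relative to both. *SLC18A1* was lower relative to both as well, at 0.243 and 0.177 TPM in WT against 0.143 and 0.136 TPM in A5-KO per 100 TPM of *CHGA*, and at 9.58 and 7.43 TPM against 6.40 and 6.19 TPM per 100 TPM of *FEV*. *LMX1A* was higher in A5-KO relative to both, with 26.6 and 24.3 TPM in WT against 33.8 and 33.1 TPM in A5-KO per 100 TPM of *FEV*. *DDC* was higher relative to *FEV* and overlapped relative to *CHGA*. *CXCL14* was lower relative to both, and *FEV* lower relative to *CHGA*. The share of all genes that separate on such ratios was not counted. Per 100 TPM of *INS*, which encodes insulin, *TPH1* stood at 1.69 and 1.75 TPM in the WT libraries against 1.87 and 1.82 TPM in those of A5-KO. *SLC18A1* per 100 TPM of *INS* overlapped between genotypes, with WT libraries at 0.344 and 0.283 TPM and A5-KO libraries at 0.342 and 0.305 TPM. Relative to *INS*, whose own mRNA fell in A5-KO and of which 1 copy carries the reporter, the A5-KO libraries did not lie below those of WT for either gene. Per 100 TPM of *INS* the A5-KO libraries were higher for *FEV*, at 5.35 and 4.93 TPM against 3.59 and 3.81 TPM in WT. They were higher for *LMX1A* too, at 1.81 and 1.63 TPM against 0.953 and 0.924 TPM, and for *DDC*, at 5.64 and 5.37 TPM against 3.51 and 3.34 TPM. *CXCL14* per 100 TPM of *INS* was lower in A5-KO, at 0.0133 and 0.0163 TPM against 0.0715 and 0.0721 TPM in WT.

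The label was checked against further genes of these cells. Of 15 other genes known from gut or stem-cell-derived enterochromaffin cells, 13 were tested in hILOs. In A5-KO 2 of them fell and 4 rose, with a median log2 fold change of 0.26. Over all genes tested in hILOs 4.09% were called lower and 2.7% higher, which also applies to the hILO counts of the lists below. *TAC1*, which encodes the precursor of substance P, fell from 33.3 and 33.6 TPM in WT to 8.74 and 9.56 TPM in A5-KO (log2 fold change -1.76, adjusted p = 0.0036 by limma). *CBLN1*, a secreted protein of the cerebellin family, fell from 71.7 and 71.3 TPM to 26.0 and 23.6 TPM (log2 fold change -1.49, adjusted p = 0.0036 by limma). *SCT*, which encodes the hormone secretin, rose from 111 and 117 TPM to 448 and 447 TPM (log2 fold change 1.96, adjusted p = 0.0019 by limma). These 3 calls held when any single library was left out.

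The other genes that rose were *MME*, *ADRA2A* and *GFRA3*. *MME* encodes the peptidase neprilysin, *ADRA2A* an adrenergic receptor and *GFRA3* a receptor of the GDNF family. Their log2 fold changes lay between 0.74 and 0.98, with adjusted p between 0.0062 and 0.017 by limma. *ADRA2A* and *GFRA3* lost the call without any of the 4 libraries, and *MME* without either A5-KO library, with adjusted p up to 0.091 for *GFRA3*. The granins *CHGA* and *CHGB* had log2 fold changes of -0.16 and -0.01 (95% intervals -0.35 to 0.04 and -0.11 to 0.09) and were not called. The listed genes therefore did not share a direction in the bulk RNA of A5-KO hILOs. Not all of them are particular to these cells. In WT PPs at 0 h, *ADRA2A* stood at 15.0 and 9.48 CPM, *GFRA3* at 18.4 and 18.1 CPM and *MME* at 7.29 and 6.01 CPM. *TPH1* was close to the limit of detection there. Which cells of the mixture these changes came from was not tested.

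Of 14 genes for cofactor supply, transport and breakdown of serotonin and for its neuronal synthesis, 11 were tested in hILOs and 1 fell. This was *SLC7A5*, a subunit of the transporter that brings tryptophan and other large neutral amino acids into the cell. It stood at 53.9 and 55.4 TPM in the WT libraries against 28.9 and 27.4 TPM in those of A5-KO (log2 fold change -0.93, adjusted p = 0.0063 by limma). Its adjusted p reached 0.057 on leaving out a WT library. Its partner subunit *SLC3A2* stood at 233 and 219 TPM in the WT libraries against 211 and 224 TPM in those of A5-KO and was not called. *GCH1*, the first enzyme of tetrahydrobiopterin synthesis, the cofactor of the hydroxylase, changed by -0.13 on the log2 scale (adjusted p = 0.10 by limma) and was not called. *MAOA* and *MAOB*, which encode the oxidases that break serotonin down, had log2 fold changes of 0.36 and 0.34 (adjusted p = 0.052 and 0.041 by limma). Neither was called, *MAOB* having passed the adjusted p and not the fold.

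*TPH2*, the hydroxylase of brain serotonin neurons, was listed at 0.024 TPM or less in every hILO library. The serotonin transporter *SLC6A4* stood between 1.46 and 2.04 TPM. Of 14 serotonin receptor genes, 4 were tested (*HTR1A*, *HTR1B*, *HTR1D* and *HTR3A*), and limma called 0 of them, with 0 at an unadjusted p below 0.05 as well. At that limit 3238 of the 17300 genes tested in hILOs were lower and 2106 higher. Of 10 neuronal markers, *DBH*, *SLC6A3* and *ELAVL4* were among those below 1 TPM in every hILO library, and the list summed to between 670 and 693 TPM in WT and between 571 and 586 TPM in A5-KO. Of the 6 that were tested, 2 fell, *TUBB3* and *TH*. *TUBB3*, a tubulin of neurons, stood at 170 and 176 TPM in the WT libraries against 106 and 108 TPM in those of A5-KO (log2 fold change -0.69, adjusted p = 0.0057 by limma, and 0.052 without WT replicate 2). *TH*, the tyrosine hydroxylase that acts before DDC in dopamine synthesis, stood at 6.47 and 7.73 TPM in the WT libraries against 0.987 and 0.637 TPM in those of A5-KO (log2 fold change -2.16, adjusted p = 0.011 by limma, and up to 0.079 on leaving out a library).

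Among 16 transcription factors of the enteroendocrine and pancreatic endocrine lineage, 14 were tested in hILOs, of which 1 fell and 2 rose. *NEUROG3*, the factor that starts endocrine differentiation, stood at 2.38 and 2.44 TPM in the WT libraries against 0.586 and 0.747 TPM in those of A5-KO (log2 fold change -1.04, adjusted p = 0.045 by limma). *NEUROD1*, which acts after it, rose from 208 and 209 TPM to 352 and 350 TPM (log2 fold change 0.75, adjusted p = 0.0028 by limma). *PAX4*, a factor of the beta and enterochromaffin lineages, rose with a log2 fold change of 0.59 (adjusted p = 0.0091 by limma). The calls of *NEUROG3* and *PAX4* were lost on leaving out any library, with adjusted p up to 0.165 and 0.067, and that of *NEUROD1* was kept. The *NEUROG3* call was also lost in 4 of 6 other settings, with an adjusted p by limma of 0.096 with a replicate block, 0.107 without a filter, 0.055 with quantile normalization and 0.052 with a pseudocount of 0.1 TPM. Of 7 islet hormone genes, 6 were tested and 4 fell, namely *INS*, *GCG*, *SST* and *PPY*, with log2 fold changes between -0.77 and -2.66. *PPY* lost its call without either WT library (adjusted p up to 0.060 by limma).

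Markers of other cell types differed between the hILO genotypes as well. The 10 hepatocyte markers summed to between 20524 and 20823 TPM in WT and between 32548 and 32857 TPM in A5-KO, where *TTR* and *ALB* rose and *FGB* and *FGG* fell. The higher sum was mostly that of *TTR*, at 7527 and 7550 TPM in the WT libraries against 18674 and 18749 TPM in those of A5-KO. The median log2 fold change of this list was 0.16. The 10 gut epithelium markers summed to between 4593 and 4614 TPM in WT and between 3541 and 3626 TPM in A5-KO, with *CDX1* and *OLFM4* below 1 TPM in every library. The lower sum was that of *APOA4*, an apolipoprotein, at 3670 and 3692 TPM in the WT libraries against 2416 and 2350 TPM in those of A5-KO (log2 fold change -0.63, adjusted p = 0.0028 by limma), which with median-of-ratios or quantile scaling no longer passed 1.5-fold. Of the 7 gut markers tested, *VIL1*, *CDH17*, *LGALS4*, *FABP2* and *GUCY2C* had log2 fold changes between 0.31 and 0.53 with adjusted p between 0.0061 and 0.026 by limma, which passed the adjusted p and not the fold, and the list's median was 0.35. The 10 mesenchyme markers summed to between 11.5 and 19.4 TPM in WT and between 49.3 and 54.5 TPM in A5-KO, with *DCN*, *PDGFRA*, *PDGFRB* and *THY1* below 1 TPM in every library. The 8 pancreatic endocrine markers summed to between 34883 and 37194 TPM in WT and between 26800 and 28007 TPM in A5-KO. Much of the lower sum was that of *INS*, at 13033 and 12978 TPM in the WT libraries against 7605 and 7606 TPM in those of A5-KO. Of these 8 markers 3 were called lower and 1, *NEUROD1*, higher. The part of these shifts in the results for the 6 genes was not tested.

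In PPs, 4 of the 6 genes were close to the limit of detection. The CPM values gave back whole reads, between 30516384 and 35206514 for each library. *TPH1* had 2 to 29 reads in each of the 16 libraries, *FEV* 0 to 20, *LMX1A* 0 to 13 and *CXCL14* 7 to 45. A count of 0, seen for *FEV* in 2 libraries and *LMX1A* in 4, allows up to 3 reads, or 0.0852 to 0.0983 CPM, by counting error alone. At 0 h the summed reads of the 2 WT and of the 2 A5-KO libraries were 31 and 27 for *TPH1*, 11 and 8 for *FEV*, 21 and 11 for *LMX1A* and 38 and 44 for *CXCL14*. None of these 4 genes had the mean of 1 CPM that was needed for a test, so differences between genotypes were not tested. Over all 8 libraries of each genotype, which span the hours of Act D, the sums were 70 in WT and 125 in A5-KO for *TPH1*, 72 and 58 for *FEV*, 41 and 42 for *LMX1A* and 130 and 172 for *CXCL14*. *TPH1* had 16 and 15 reads in WT against 16 and 11 in A5-KO at 0 h, 3 and 5 against 9 and 17 at 1 h, 2 and 8 against 9 and 19 at 2 h, and 14 and 7 against 29 and 15 at 3 h. From 1 h on, both A5-KO libraries thus had more *TPH1* reads than both WT libraries of the same time. At 0 h they did not. Such non-overlap was counted over all genes at 0 h only. At that time 29% of the 13911 genes tested had both A5-KO libraries above both WT libraries. This *TPH1* pattern was not tested.

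**Figure D3:**
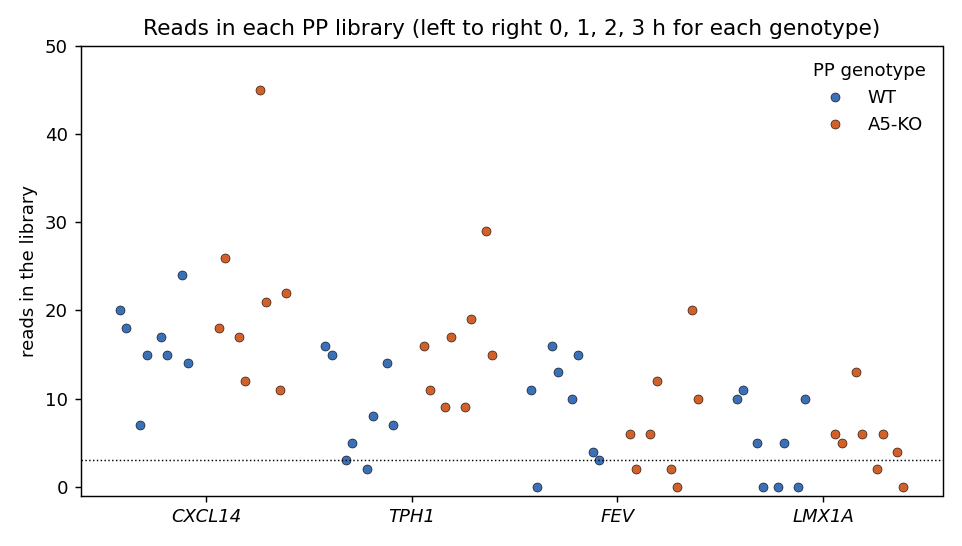
Reads (vertical axis) of the 4 low genes in each of the 16 PP libraries, WT in blue and A5-KO in orange, with the hours of Act D running from left to right within each genotype. The dotted line marks 3 reads, and the highest point is *CXCL14* with 45 reads in an A5-KO library at 2 h.

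*DDC* and *SLC18A1* were readily measured in PPs, where endocrine markers were low. The 8 pancreatic endocrine markers summed to between 2.78 and 4.05 CPM at 0 h, with *INS*, *GCG*, *CHGB*, *PCSK1* and *PCSK2* below 1 CPM in every library. The 8 progenitor markers summed to between 841 and 1154 CPM at 0 h, with *PTF1A* below 1 CPM. Divided by exon length, *DDC* stood at 17.2 CPM per kb in WT and 23.4 in A5-KO at 0 h, *SLC18A1* at 4.59 and 3.88, and the other genes at 0.334 or less. The genes detected at this stage thus encode the decarboxylase and the vesicle transporter, without appreciable *TPH1*. The decarboxylase is not particular to serotonin and also serves dopamine synthesis.

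At 0 h *DDC* stood at 52.4 and 53.9 CPM in the WT libraries against 67.9 and 76.7 CPM in those of A5-KO. Both A5-KO libraries were higher, as they were for 29% of the 13911 genes tested. The log2 fold change of CPM + 1 was 0.43 (SE 0.10, 95% interval 0.22 to 0.65, adjusted p = 0.037 by limma), which passed the adjusted p and not the 1.5-fold limit. On the recovered reads the log2 fold change was 0.41 with both edgeR (adjusted p = 0.042) and DESeq2 (adjusted p = 0.019). *SLC18A1* stood at 19.1 and 16.8 CPM in the WT libraries against 14.0 and 16.4 CPM in those of A5-KO. Its A5-KO libraries were lower, as they were for 20.8% of the genes tested, the nearest values being 16.4 and 16.8 CPM. Its log2 fold change was -0.23 (SE 0.14, 95% interval -0.54 to 0.08, adjusted p = 0.41 by limma). Neither gene was called by limma, edgeR or DESeq2, although 1 of the 2, *DDC*, had an unadjusted p below 0.05 by limma. By the same call 1.13% of genes were lower in A5-KO and 1.57% higher. At an unadjusted p below 0.05 by limma, 1153 of the 13911 genes tested were lower and 1531 higher.

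Marker sums of PPs also differed between the genotypes at 0 h. The hepatocyte markers summed to between 1093 and 1141 CPM in WT and between 1904 and 1930 CPM in A5-KO. Most of the higher sum was that of *AFP*, at 563 and 551 CPM in the WT libraries against 1343 and 1294 CPM in those of A5-KO. *SERPINA1* was lower, at 311 and 371 CPM against 200 and 268 CPM, and was not called. Of the 8 hepatocyte markers tested 6 were called higher and 0 lower, against 1.57% and 1.13% of all genes tested. The gut epithelium markers summed to between 627 and 656 CPM in WT and between 827 and 858 CPM in A5-KO. Of these, *GUCY2C* was called higher and *OLFM4* lower. Mesenchyme markers summed to between 120 and 128 CPM in WT and between 211 and 215 CPM in A5-KO. *CYP3A7*, *MUC2*, *DCN*, *TWIST1* and *THY1* of these lists were below 1 CPM in every library. Hepatocytes and gut epithelium are also known to express *DDC*, and the part of these shifts in its value was not tested.

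Of the list genes in PPs at 0 h, limma called *SLC7A5* and *RFX6* as higher and *PYY* as lower. *SLC7A5* stood at 64.6 and 64.3 CPM in the WT libraries against 106 and 108 CPM in those of A5-KO (log2 fold change 0.72, adjusted p = 0.0012 by limma). *RFX6*, an endocrine transcription factor whose call was lost without a filter on low values (adjusted p = 0.091 by limma), stood at 4.88 and 3.47 CPM in the WT libraries against 15.4 and 9.90 CPM in those of A5-KO (log2 fold change 1.38, adjusted p = 0.0092 by limma). *PYY*, the peptide YY hormone, stood at 60.3 and 69.3 CPM in the WT libraries against 22.3 and 25.2 CPM in those of A5-KO (log2 fold change -1.41, adjusted p = 0.00018 by limma). Of the other enterochromaffin genes 5 of 15 were tested and 0 called, with 2, *GFRA3* and *GUCA2A*, lower at an unadjusted p below 0.05 by limma. At that limit 1153 of the 13911 genes tested were lower and 1531 higher.

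Act D shows how an mRNA changes relative to all others once transcription is blocked, since CPM is a share of each library. In WT PPs *DDC* stood at 52.4 and 53.9 CPM at 0 h, 67.4 and 65.7 CPM at 1 h, 60.7 and 69.1 CPM at 2 h, and 65.3 and 71.1 CPM at 3 h. In A5-KO PPs it stood at 67.9 and 76.7 CPM at 0 h, 80.7 and 80.5 CPM at 1 h, 72.3 and 78.2 CPM at 2 h, and 90.6 and 93.2 CPM at 3 h. At each of the 4 times both A5-KO libraries lay above both WT libraries of that time. At 0 h 29% of genes tested did so, and no share was counted at 1, 2 or 3 h. Over all times the ranges overlapped between 67.9 and 71.1 CPM. The slope of log2(CPM + 0.1) was 0.10 per h in WT (95% interval 0.02 to 0.18, adjusted p = 0.35 by limma) and 0.09 per h in A5-KO (95% interval 0.01 to 0.17, adjusted p = 0.052 by limma). The difference of slopes was -0.01 per h (SE 0.05, 95% interval -0.12 to 0.10, adjusted p = 0.95 by limma), and its sign turned with the scaling, to 0.06 with median-of-ratios factors and 0.0016 with quantile normalization.

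*SLC18A1* in WT PPs stood at 19.1 and 16.8 CPM at 0 h, 18.1 and 15.4 CPM at 1 h, 15.2 and 17.4 CPM at 2 h, and 14.5 and 19.0 CPM at 3 h. In A5-KO PPs it stood at 14.0 and 16.4 CPM at 0 h, 13.9 and 16.8 CPM at 1 h, 16.6 and 20.5 CPM at 2 h, and 18.8 and 17.4 CPM at 3 h. The genotypes overlapped at 1, 2 and 3 h. Its slope was -0.04 per h in WT (95% interval -0.15 to 0.08, adjusted p = 0.79 by limma) and 0.10 per h in A5-KO (95% interval -0.01 to 0.22, adjusted p = 0.12 by limma). The slopes differed by 0.14 per h (SE 0.08, 95% interval -0.02 to 0.30, adjusted p = 0.28 by limma).

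Neither gene had a called difference of slopes, while 2.61% of the 13620 genes tested were called with a lower slope in A5-KO and 0.0661% with a higher one. Nor was either gene at an unadjusted p below 0.05 by limma, where 2725 of the 13620 were lower and 322 higher. Within A5-KO 37.1% of genes had a slope called below 0 and 7.44% above it, and within WT 0.11% and 0.132%. The low WT shares depended on the times fitted. From 0 and 1 h only, 3512 genes fell and 293 rose within WT, and 4164 and 1161 within A5-KO. From 0 and 3 h only, 2199 fell and 223 rose within WT, and 5747 and 1575 within A5-KO. By scaling, the median slope of all genes within A5-KO moved from -0.08 to 0.05 per h with quantile normalization, where 2944 genes fell and 3960 rose against 5054 and 1013 without it. With median-of-ratios factors 3636 fell and 3186 rose. Within WT the split of 15 below and 18 above became 9 and 42 with quantile normalization and 12 and 28 with median-of-ratios factors. Relative to that median, the *DDC* slope of 0.09 and the *SLC18A1* slope of 0.10 within A5-KO both lay above it.

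**Figure D4:**
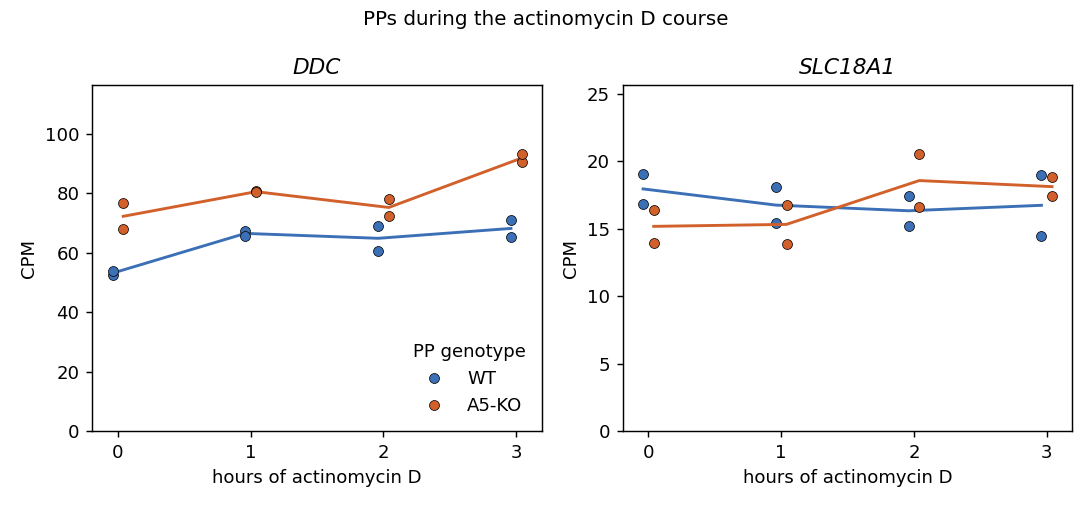
CPM (vertical axis, from 0) of *DDC* (left) and *SLC18A1* (right) in PPs by hours of Act D, WT in blue and A5-KO in orange, with points for libraries and lines through the means of 2 libraries. The A5-KO points of *DDC* reach 93.2 CPM at 3 h and lie above WT at each time, and those of *SLC18A1* overlap WT from 1 h on.

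Of the serotonin pathway genes in PPs, 10 of 14 were tested, and within A5-KO 3 fell and 1 rose under Act D, where 37.1% of all genes tested had a slope below 0 and 7.44% above it. *SLC3A2* fell with a slope of -0.41 per h (adjusted p = 0.0013 by limma), *PTS* and *GCH1*, which supply the cofactor, with -0.18 and -0.14 per h, and *MAOB* rose with 0.16 per h. With quantile normalization the slopes of *GCH1* and *PTS* turned to 0.054 and 0.025 per h. Leaving out 1 library ended the calls of *GCH1* and *MAOB* in 4 of 16 cases and that of *PTS* in 10. Of the lineage factors 6 of 7 fell within A5-KO, against the same 37.1%, among them *NEUROG3* with -0.64 per h (adjusted p = 0.00065 by limma). *DDC* and *SLC18A1* had no called slope in either genotype in the fit on all libraries with CPM as deposited. In other settings the slope of *SLC18A1* within A5-KO was called above 0 with median-of-ratios factors (0.20 per h, adjusted p = 0.0056 by limma) and quantile normalization (0.32 per h, adjusted p = 0.00051). That of *DDC* within A5-KO was called in 8 of 24, and within WT in 2 of 24, from 0 and 1 h (0.32 per h, adjusted p = 0.016) and from 0 and 3 h (0.12 per h, adjusted p = 0.018).

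Across the 16 PP libraries the genes with a pattern near to that of *DDC* included *SERPINE2* (Pearson r = 0.96) and *NDFIP1* (0.94), and those nearest to *SLC18A1* were *NUDT14* (0.80), *CD8B* (0.75) and *TXNDC12* (0.75). These are among the highest of 13620 genes, over libraries that share genotype and time, and are given as a description. The m6A core word GGACT, searched after the values were seen, occurred 6 times in the longest protein-coding transcript of *TPH1* (1.13 per kb), 2 times each in *DDC*, *SLC18A1* and *LMX1A*, 1 time in *CXCL14* and 0 times in *FEV*. The median over 13354 genes was 0.927 per kb. No methylation was measured in these libraries.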

How the data were processed

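RNA-seq of 4 hILO and 16 PP libraries was used. For hILOs, where trimming was by fastp, alignment to GRCh38 by HISAT2 (2.1.0) and quantification by StringTie, the authors deposited gene-level TPM. For PPs the authors deposited CPM per gene with ERCC spike-ins removed. The annotation release and strandedness are not given in the sources used here. Values listed for hILOs summed to 924887 and 922614 TPM for the WT libraries and 897038 and 887320 TPM for those of A5-KO, and TPM keeps no depth. In PPs at least 99.9957% of values were whole reads (tolerance 0.02), and all values were in 15 libraries. Replicates differed by more than counting error (chi-square per degree of freedom 4.15 to 34.1).

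Symbols came from GENCODE. limma (3.58.1, R 4.3.3, trend) was fitted on log2(TPM + 1), log2(CPM + 1) or, for slopes over hours, log2(CPM + 0.1), for genes with a mean of at least 1. Calls on levels needed an adjusted p (Benjamini-Hochberg) under 0.05 and a change over 1.5-fold, slopes at the adjusted p. An exact permutation test of 2 against 2 libraries cannot go below p = 0.33. edgeR (4.0.16) and DESeq2 (1.42.0) on recovered PP reads, other pseudocounts, filters, scalings, times, a replicate block and leaving out each library were alternatives. edgeR called 205 genes lower and 228 higher at 0 h. In simulated hILO data 72 of 100 genes changed by 1 on the log2 scale were called, with 7 of 17100 unchanged genes. The changed genes were drawn only from genes with a mean above those of *CXCL14* and *NEUROG3*, which this share therefore does not cover. Members and lists were chosen with earlier results of these data known. All 6 members are named, and list genes where they were called or where a result turned on them. Some genes that this rule would name are not reported here.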

Additional observations from a re-analysis of the deposited data

Results flagged for a closer look

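Several genes lay on opposite sides of WT in hILOs and in PPs at 0 h. Both A5-KO libraries were below both WT libraries at 1 stage and above them at the other. Over all genes tested, both A5-KO libraries were below WT for 37.1% and above for 24.3% in hILOs. In PPs at 0 h these shares were 20.8% and 29%. The share of genes on opposite sides at the stages was not counted. The difference between stages was not tested, and hILO and PP values were normalized separately. *DDC* had a log2 fold change of -0.090 in hILOs and 0.43 in PPs at 0 h, and neither value was called. *SLC7A5* had -0.93 in hILOs and 0.72 in PPs, both called. *GFRA3* had 0.74 in hILOs, which was called, and -0.44 in PPs, which was not. *PYY* had 0.35 in hILOs, which was not called, and -1.41 in PPs, which was.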

How the results depend on the processing

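With 2 libraries a group the counts of calls depended strongly on the settings, and the causes were not tested. In hILOs the 707 genes lower and 467 higher became 187 and 143 without a filter, 385 and 289 with a replicate block, and 96 to 203 and 83 to 118 on leaving out a library. The 6 genes kept 3 calls lower with the other pseudocount, scalings, stricter filter, robust fit and block, 2 without a filter (*SLC18A1* then had an adjusted p of 0.131), and 0 to 2 without a library, where the lone sample is assumed to vary like the others. Adjusted p ranged from 0.0042 to 0.052 for *TPH1*, 0.0060 to 0.060 for *CXCL14*, 0.031 to 0.143 for *SLC18A1* and 0.035 to 0.156 for *FEV*. *DDC* in hILOs turned to 0.0015 with quantile normalization, while its other values stayed below 0.

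In PPs at 0 h the 157 genes lower and 218 higher became 77 and 87 without a filter and 266 and 365 with the block. On leaving out a library they ranged from 123 to 191 and from 127 to 238. *DDC* stayed between 0.35 and 0.52 with an adjusted p from 0.00016 to 0.189 and was never called. The study's methods say that the wells of a biological replicate came from 1 batch of cells, and the labels do not tie the numbers to batches. Deviations of same-numbered libraries correlated between -0.06 and 0.18 across genotypes in the 5 sets, and across hours between -0.26 and 0.16 within WT (over 0.1 in 1 of 6 pairs of hours) and between -0.0092 and 0.15 within A5-KO (2 of 6), and since not every pair was over 0.1 the numbers were not taken to pair the libraries. With the replicate block the calls of *NEUROG3* in hILOs and *PTS* within A5-KO were lost. Without a filter *GFRA3*, *TH*, *INS* and *PPY* in hILOs also lost theirs, with adjusted p from 0.053 to 0.062.

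The 355 lower and 9 higher slope differences became 165 with a pseudocount of 1 CPM (lower), 0 and 0 without a filter, 105 and 5 with median-of-ratios factors, 23 and 2 with quantile normalization, 0 and 0 with the block, 2739 and 290 from 0 and 3 h, 3 and 51 from 0 and 1 h, and 0 to 1442 and 0 to 62 on leaving out a library. Within WT the 15 below and 18 above became 7 and 9 without a filter, 9 and 42 with quantile normalization, 8 and 9 with the block, 2199 and 223 from 0 and 3 h, 3512 and 293 from 0 and 1 h, 28 above with median-of-ratios factors, and 0 to 22 and 0 to 17 on leaving out a library. Within A5-KO the 5054 below and 1013 above became 2944 and 3960 with quantile normalization, 3186 above with median-of-ratios factors and 1575 above from 0 and 3 h, and 3828 to 5264 and 441 to 1132 on leaving out a library. The *DDC* slope difference turned to 0.061 with median-of-ratios factors and 0.0016 with quantile normalization, and ranged from -0.0318 to 0.0155 on leaving out a library. The *SLC18A1* slope within WT turned to 0.051 with quantile normalization, and ranged from -0.089 to 0.000984 on leaving out a library, where it turned without WT 3 h replicate 1. *DDC* within A5-KO was called in 8 of 24 alternatives, with slopes from 0.074 to 0.19, 1 of them the replicate block (adjusted p = 0.0495), and within WT in 2, with slopes from 0.079 to 0.32. *SLC18A1* within A5-KO was called in 2, with slopes from 0.012 to 0.32. Among list genes, slopes within A5-KO turned for *GCH1* (0.054) and *PTS* (0.025) with quantile normalization and for *NEUROG3* (0.0057) and *RCOR2* (0.125) from 0 and 1 h.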
